A study of Oryza sativa with 8 samples.

Results

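The genes described here act in leaf senescence and in the breakdown of chlorophyll in rice, Oryza sativa. They were chosen by name, as the loci whose symbol columns hold OsSGR, OsNAP, OsNYC1, OsNOL, OsPAO or OsORE1 as a whole word, with PAO read as pheophorbide a oxygenase. Of these 6 names 5 were found, each at 1 locus, among 46120 genes. OsORE1 matched no gene as a whole word. RNA was measured with Lasy-Seq, which sequences the 3′ ends of polyadenylated transcripts, in plants of the cultivar Tsukinohikari grown in hydroponics with enough iron. In each of the 2 tissues, roots and leaves, there was 1 library of the non-transformant (NT) and 1 library of each of 3 lines that overexpress OsbZIP83, a bZIP transcription factor gene, named b83OX-13, b83OX-15 and b83OX-19 and called lines 13, 15 and 19 here. All 8 libraries thus share the cultivar and the iron supply, and no library in the comparison was starved of iron. The labels give neither the promoter that drives OsbZIP83, nor the age of the plants, nor whether a library came from 1 plant or a pool. Each tissue had a single NT library.

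Leaf senescence is the ordered dismantling of the leaf, in which nitrogen and other nutrients leave for younger organs. NAC transcription factors switch it on, and the green pigment is removed along a fixed route in the chloroplast. Chlorophyll b is first converted towards chlorophyll a by chlorophyll b reductase, which in rice has the subunits NYC1 and NOL, followed by hydroxymethyl chlorophyll a reductase. Stay-green protein (SGR) takes the magnesium out of chlorophyll a, a pheophytinase (NYC3 in rice) removes the phytol tail, pheophorbide a oxygenase (PAO) opens the ring, and red chlorophyll catabolite reductase (RCCR) handles the product. Rice mutants of SGR and of NYC1 keep their leaves green during senescence.

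The roles were checked against the annotation in the table. It describes OsSGR (locus Os09g0532000, chromosome 9) and OsNAP (Os03g0327800, chromosome 3) as activators of chlorophyll loss and of leaf senescence, OsNYC1 (Os01g0227100, chromosome 1) as chlorophyll b reductase and OsPAO (Os03g0146400, chromosome 3) as pheophorbide a oxygenase. OsNOL (Os03g0654600, chromosome 3) carries the symbol of the NYC1-like reductase but is described as similar to a Myb-like protein, so its values are those of a locus on whose product the annotation columns differ. Values are reads per 1000000 (RPM), and a level of 1 gene is compared across libraries, not with the level of another gene. Depth was between 16951875 and 35707037 gene reads per library, estimated from the value of 1 read. OsbZIP83 stood at 1.62 RPM in NT leaves, against 75.3, 100.5 and 94.98 RPM in leaves of lines 13, 15 and 19, and at 32.0 RPM in NT roots against 153.9, 186.1 and 187.6 RPM in roots of the lines. The labels of NT and of overexpression thus held in both tissues, while this gene does not tell the lines from each other. The 9 leaf markers measured summed to 72392 to 89608 RPM in leaves. In roots they summed to 0.581 to 5.61 RPM in the lines and 190.2 RPM in NT, nearly all of it OsCAB1R, with the other 8 listed at 0 in NT roots. The 10 root markers summed to 7138 to 9287 RPM in roots and to 11.9 RPM in NT leaves, 17.2 in line 13, 18.9 in line 15 and 14.7 in line 19. In whole roots and leaves, fewer cells of a type and less RNA per cell cannot be told apart.

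Among the regulators, OsNAP, a NAC factor that promotes leaf senescence in rice, was high in leaves of 1 line. It stood at 3.02 RPM in NT leaves, against 3.95, 10.9 and 3.09 RPM in leaves of lines 13, 15 and 19. Line 15 stood apart, while line 19 lay next to NT. The mean of the lines was 5.98 ± 4.29 RPM (SD, n = 3), and the log2 fold change on log2(RPM + 1) was 0.63 with a standard error (SE) of 0.54 (limma, adjusted p = 0.576). Without line 15 it was 0.16. Of all genes tested, 4.97% had a value in line 15 leaves at least 2 times that of the next leaf library. The sum of the root markers was also highest in line 15 leaves, by a small margin over line 13. In line 15 leaves OsAKT1 gave 9.23 RPM of it, OsLSI1 3.66 RPM and OsSCR1 3.54 RPM. OsRCc3, OsLSI2 and OsNRT2.1 were listed at 0 in all leaf libraries. The part of this sum in the OsNAP value was not tested. In roots OsNAP was at 7.13 RPM in NT, against 8.86, 11.02 and 14.0 RPM in the lines. Every line lay above NT there, but the change of 0.58 (SE 0.54) did not pass the test (adjusted p = 0.707).

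OsNYC1, a subunit of the enzyme that starts the conversion of chlorophyll b, was at 358.6 RPM in NT leaves, against 431.8, 496.1 and 509.0 RPM in leaves of lines 13, 15 and 19. All 3 lines lay above NT, with a mean of 479.0 ± 41.4 RPM (SD, n = 3), 1.34 times NT. The log2 fold change was 0.41 with a 95% interval of 0.07 to 0.75, and limma gave an unadjusted p = 0.0232 and an adjusted p = 0.161. In roots the gene was at 21.1 RPM in NT, against 17.4, 19.97 and 21.2 RPM in the lines, a range that holds NT (log2 fold change -0.11, adjusted p = 0.805).

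OsNOL, named for the other subunit of the reductase, lay on the other side of NT in leaves. It was at 32.2 RPM in NT leaves, against 30.0, 28.7 and 27.4 RPM in the lines. All 3 lines lay below NT, at 0.930, 0.891 and 0.850 times its level. The log2 fold change of -0.16 had a 95% interval of -0.59 to 0.27 (limma, adjusted p = 0.689), so neither a fall of up to that lower bound nor a small rise could be told from no change. In roots it was at 2.98 RPM in NT, against 2.61, 2.93 and 3.90 RPM in the lines, on both sides of NT.

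OsSGR, the magnesium-removing stay-green protein, showed the largest log2 fold change in leaves among the 5 genes, and its values spread widely among the lines. In leaves it was at 4.01 RPM in NT, against 6.24, 17.8 and 13.4 RPM in lines 13, 15 and 19, which is 1.56, 4.44 and 3.35 times NT. Every line lay above NT, with line 13 closer to NT than to the other lines. The log2 fold change was 1.32 with an SE of 0.45 and a 95% interval of 0.27 to 2.38 (limma, unadjusted p = 0.0205, adjusted p = 0.152). It passed the threshold only when line 13 was left out (1.72, adjusted p = 0.0231), 1 of 12 alternatives, over which the adjusted p ran from 0.0231 to 0.437. In roots the order was turned round, with 15.2 RPM in NT, against 7.29, 8.06 and 8.95 RPM in the lines. There every line lay below NT, the lines agreed more closely with each other (8.10 ± 0.8285 RPM, SD, n = 3), and the change of -0.83 (SE 0.45) had an adjusted p = 0.480 in limma. The SE was the same as in leaves because the spread was pooled over both tissues, so the wide leaf lines also bear on this root test. NT roots were also the root library with OsCAB1R at 190.2 RPM, although the other 8 leaf markers were listed at 0 there. OsSGR was lower in NT leaves (4.01 RPM) than in NT roots. NT roots had the lowest share of chloroplast rRNA in the rRNA class, 0.125% against 0.450%, 1.43% and 1.86% in roots of lines 13, 15 and 19. The part of OsCAB1R or of this share in the OsSGR value was not tested.

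The difference of the effect of the lines between tissues, leaf effect minus root effect, was 2.15 for OsSGR with a 95% interval of 0.66 to 3.64 (limma, unadjusted p = 0.0108, adjusted p = 0.198). None of the 5 genes passed this test over all genes, where 0.382% of genes did, 0.259% with the higher effect in leaves. With the line as a replicate block 26 of all genes passed in place of 84, and again 0 of the 5, and the split of all genes turned from 57 higher and 27 lower in leaves to 11 higher and 15 lower. At an unadjusted p under 0.05 OsSGR and OsNYC1 did, and 15.2% of all genes. The pattern of OsSGR, with all lines above NT in leaves and all below NT in roots, was found in 11.9% of the genes tested.

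OsPAO, whose enzyme opens the chlorophyll ring and commits the pigment to loss, was at 20.6 RPM in NT leaves, against 27.0, 30.3 and 35.0 RPM in lines 13, 15 and 19. The lines lay above NT without overlap, at 30.8 ± 4.03 RPM (SD, n = 3) or 1.496 times NT. The log2 fold change was 0.55 with a 95% interval of 0.13 to 0.97 (limma, unadjusted p = 0.0173, adjusted p = 0.1402). In roots the gene was at 5.35 RPM in NT, against 6.65, 5.35 and 6.54 RPM in the lines, with line 15 level with NT (0.17, adjusted p = 0.743).

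**Figure D1:**
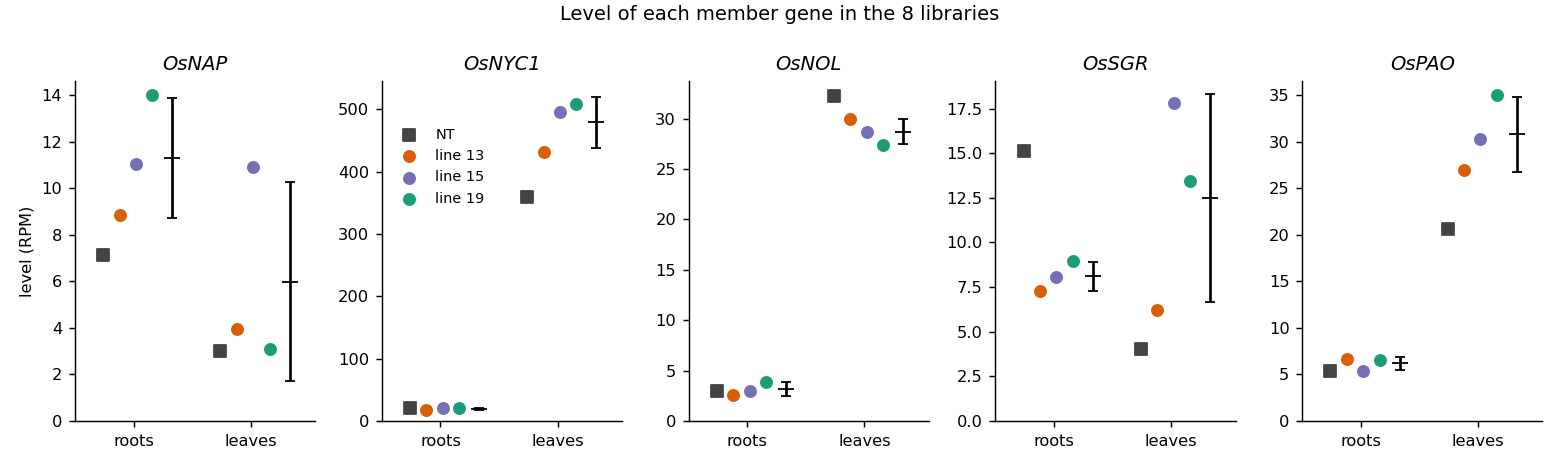
Level in RPM of each of the 5 genes in roots and leaves, with 1 point per library (square for NT, circles for lines 13, 15 and 19) and, to the right of them, the mean of the 3 lines with its SD. In leaves OsSGR in NT (4.01 RPM) lies below all 3 lines, in roots it lies above them (15.2 RPM), and OsNAP is high in leaves of line 15 (10.9 RPM).

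Counted together, 0 of the 5 genes passed the test of lines against NT in leaves, where 3.79% of all genes tested did. At an unadjusted p under 0.05, OsSGR, OsNYC1 and OsPAO did so with higher values in the lines, 3 of 5 against 21% of all genes in either direction. All 3 lines lay above NT in leaves for 4 of the 5 genes, all but OsNOL, while this held for 42.2% of all genes. The median log2 fold change of the 5 genes in leaves was 0.55, beside 0.09 over all genes. In roots 0 of the 5 passed, against 1.16% of all genes (0.655% with a rise and 0.509% with a fall, an order that turned with a pseudocount of 5 RPM, to 154 and 256 genes, and with no filter, to 179 and 505), and 0 did at an unadjusted p under 0.05. There all 3 lines lay above NT for 2 of the 5 (OsNAP and, by a margin lost in rounding in line 15, OsPAO) and below NT for OsSGR alone, where 31.9% and 33.4% of all genes did so. The root median was 0.05, beside 0.00 over all genes. Since the single NT library of each tissue is the base of every one of these values, a deviation of that library would move all 3 lines together.

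**Figure D2:**
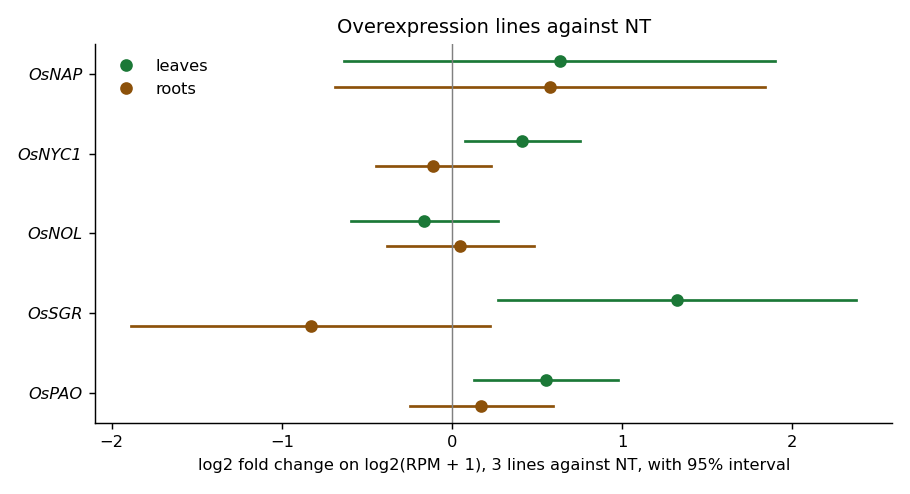
Log2 fold change of the 3 lines against NT on log2(RPM + 1) for each gene, in leaves and roots, with the 95% interval from limma. The leaf intervals of OsSGR (0.27 to 2.38), OsNYC1 (0.07 to 0.75) and OsPAO (0.13 to 0.97) lie above 0, although none passed after adjustment over all genes.

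Between tissues, OsNYC1, OsNOL and OsPAO were far higher in leaves than in roots. OsNYC1 was at 358.6 to 509.0 RPM in the 4 leaf libraries and at 17.4 to 21.2 RPM in the 4 root libraries, a difference of 4.42 on the log2 scale (SE 0.12, limma, adjusted p = 8.27e-10). OsNOL was at 27.4 to 32.2 RPM in leaves and 2.61 to 3.90 RPM in roots (2.91, adjusted p = 8.72e-09). OsPAO was at 20.6 to 35.0 RPM in leaves and 5.35 to 6.65 RPM in roots (2.05, adjusted p = 1.1e-06). For these genes no leaf library overlapped a root library, and an exact two-sided permutation test of 4 against 4 libraries gave p = 0.0286 for each, the smallest it allows (0.0476 adjusted over the 5 genes). The test took NT and the lines together and did not use the pairing of root and leaf libraries by line. A complete separation of the tissues was found in 22.8% of all genes tested with leaves on top and in 55.4% with roots on top.

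OsSGR did not follow these enzymes. Its 4 leaf libraries, from 4.01 to 17.8 RPM, spanned the whole range of its root libraries, from 7.29 to 15.2 RPM, and the difference of -0.07 (95% interval -0.98 to 0.84) had an adjusted p = 0.871 and an exact permutation p = 0.886. That difference turned to 0.45 under rescaling with trimmed means of M values (TMM), to 0.41 under quantile normalization and to 0.46 without the NT libraries, so no direction is given. OsNAP was lower in leaves (3.02 to 10.9 RPM) than in roots (7.13 to 14.0 RPM) with a difference of -0.97 on the log2 scale (SE 0.35, limma, adjusted p = 0.0251), with line 15 leaves inside the root range, and the exact permutation test gave p = 0.0857. This call was lost under TMM (-0.47, adjusted p = 0.251), under quantile normalization (-0.48, adjusted p = 0.214), without line 13 (-0.97, adjusted p = 0.0852) and without line 19 (-0.68, adjusted p = 0.163), and it passed in 8 of 12 alternatives, over which its adjusted p ran from 0.00133 to 0.251.

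In total 3 of the 5 genes were called higher in leaves and 1 lower, where 24.2% and 58.5% of all genes were, 82.7% together and 83.5% at an unadjusted p under 0.05. The median over all genes was -0.59 with the values as deposited and -0.07 after TMM, and the share of calls that were higher in leaves went from 29.3% to 47.0%. OsNYC1, OsNOL and OsPAO kept their direction and their call under all 12 alternatives, with differences of 4.18 to 4.99, 2.095 to 3.44 and 1.58 to 2.58 on the log2 scale.

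**Figure D3:**
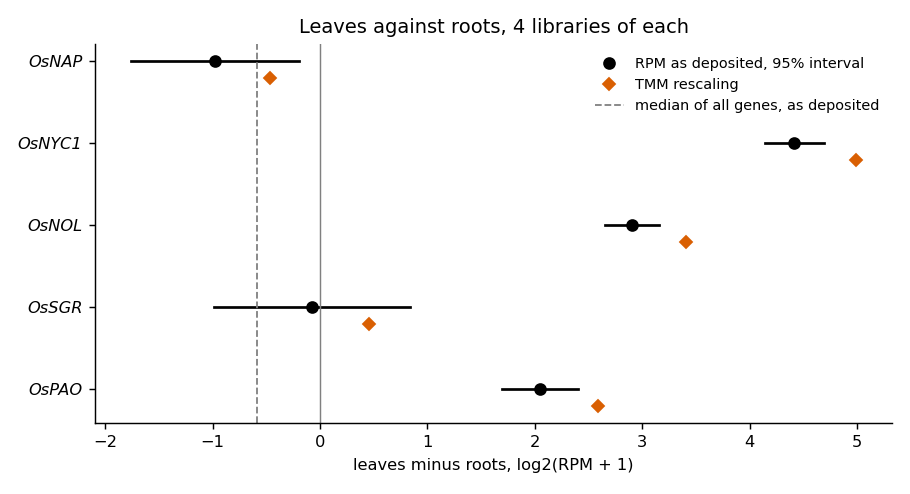
Difference between leaves and roots on log2(RPM + 1) for each gene, over 4 libraries of each tissue, as deposited with its 95% interval (circles) and after TMM rescaling (diamonds). The dashed line marks the median of all genes as deposited (-0.59), and OsSGR changes side of 0 with the rescaling, from -0.07 to 0.45.

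The route was followed further through 7 other genes of chlorophyll breakdown, from a list of 9 names of which these were matched. In leaves 1 of the 7 passed the test and rose, and 0 fell, beside 2.66% and 1.13% of all genes. It was OsRCCR1 (Os10g0389200), a red chlorophyll catabolite reductase gene next in the route after PAO, at 16.4 RPM in NT leaves, against 26.6, 33.0 and 37.1 RPM in the lines. All 3 lines lay above NT, by 0.92 on the log2 scale (SE 0.18, limma, adjusted p = 0.0409). The call was lost without line 15 (0.90, adjusted p = 0.161), without line 19 (0.82, adjusted p = 0.142), and in 3 other alternatives. The neighbouring OsRCCR2 (Os10g0389300) was at 1.69 RPM in NT leaves, against 4.64, 15.8 and 4.88 RPM in the lines (1.61, adjusted p = 0.169), so line 15 was again the highest.

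OsNYC3, the pheophytinase that acts between SGR and PAO, was at 37.5 RPM in NT leaves, against 55.6, 68.6 and 63.9 RPM in the lines, a difference of 0.72 that fell just short of the threshold (limma, adjusted p = 0.0510) and passed it in 4 alternatives (adjusted p 0.0404 to 0.270 over all of them). OsHCAR, which follows chlorophyll b reductase in the route, stood level, at 77.1 RPM in NT leaves, against 75.8 ± 0.725 RPM in the lines (SD, n = 3; -0.02, adjusted p = 0.956). OsNYC4, a thylakoid protein whose rice mutant stays green, was at 488.0 RPM in NT leaves and lower in all 3 lines at 412.3 ± 5.91 RPM (-0.24, adjusted p = 0.266). Another locus described as a stay-green domain protein, Os04g0692600, was at 59.2 RPM in NT leaves, against 40.4, 41.8 and 29.3 RPM in the lines, the opposite side of NT from OsSGR (-0.67, adjusted p = 0.256). OsCHL, of the chlorophyllase family, was at 30.2 RPM in NT leaves and on both sides of it in the lines. OsRCCR2, OsNYC3, Os04g0692600 and OsCHL are named although the rule for named genes did not pick them, after their values were seen.

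The median of the 7 genes in leaves was 0.25, beside 0.09 for all genes, and 3 of the 7 lay above NT in all lines and 3 below, where 42.2% and 20.6% of all genes did. In roots 0 of the 7 passed, at adjusted p of 0.637 and above in limma, beside 1.16% of all genes. All 7 were called higher in leaves than in roots, by 1.39 to 4.67 on the log2 scale. Of all genes 24.2% were called so, and 82.7% in either direction.

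**Figure D4:**
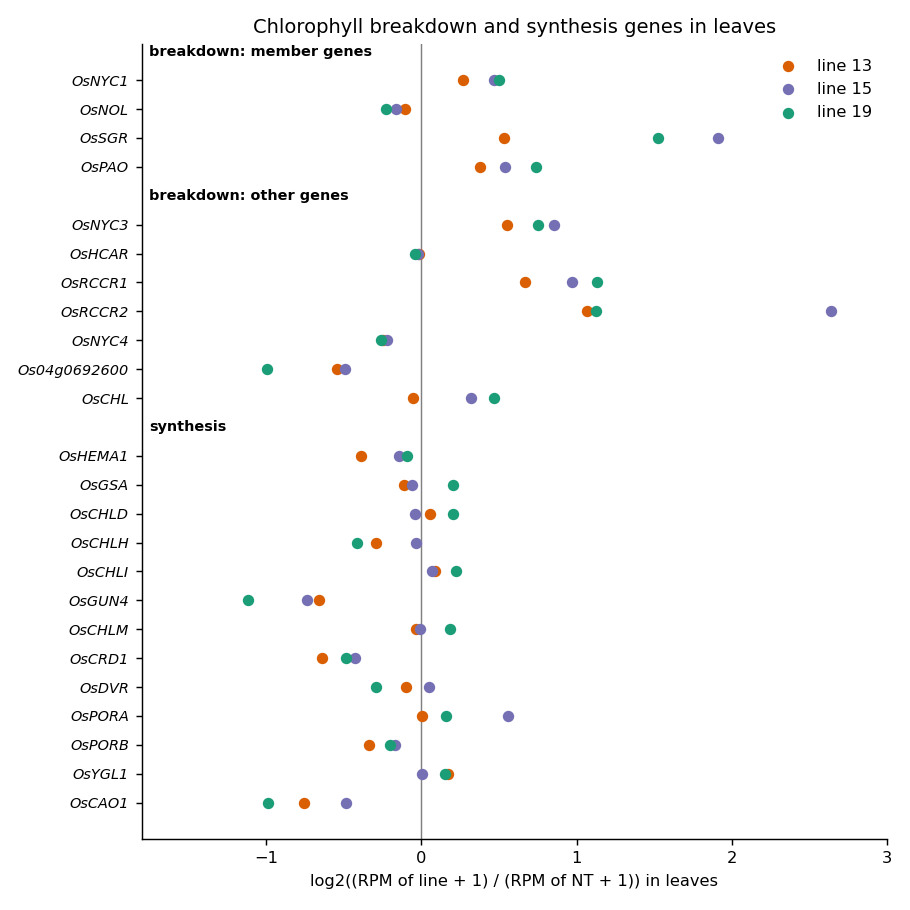
Each line against NT in leaves, as log2((RPM of line + 1) / (RPM of NT + 1)), for 4 of the 5 genes described first, the 7 other breakdown genes and the 13 chlorophyll synthesis genes tested. Both groups lie on both sides of 0: among the breakdown genes OsSGR, OsPAO, OsNYC1, OsNYC3, OsRCCR1 and OsRCCR2 lie right of it in all 3 lines and OsNOL, OsHCAR, OsNYC4 and Os04g0692600 left, and among the synthesis genes OsCHLI, OsPORA and OsYGL1 lie right and OsHEMA1, OsCHLH, OsGUN4, OsCRD1, OsPORB and OsCAO1 left.

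No gene that builds chlorophyll passed the test of lines against NT. Of 14 synthesis genes matched 13 were tested, and 0 passed in leaves or in roots, where 3.79% and 1.16% of all genes did. At an unadjusted p under 0.05, 2 of the 13 passed in leaves, both lower, beside 21% of all genes in either direction. The leaf median was -0.11, beside 0.09 for all genes (-0.24 after TMM, beside 0.00). In leaves 6 of the 13 lay below NT in all 3 lines and 3 above, where 20.6% and 42.2% of all genes did. OsPORB, a protochlorophyllide oxidoreductase, was at 672.6 RPM in NT leaves, against 533.7, 597.9 and 586.4 RPM in the lines (-0.23, limma, adjusted p = 0.292). OsCRD1, a subunit of the cyclase that forms the fifth ring, was at 586.4 RPM in NT leaves, against 377.2, 435.8 and 418.4 RPM in the lines (-0.52, adjusted p = 0.602). Its leaf lines lay at 410.5 ± 30.1 RPM (SD, n = 3). The spread in the test was pooled with that of its root lines, at 0, 1.83 and 0.484 RPM. OsHEMA1, glutamyl-tRNA reductase at the entry of the pathway, was at 452.7 RPM and 393.8 ± 42.3 RPM (-0.21, adjusted p = 0.450).

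The 2 lower genes, named here after their values were seen, were OsGUN4 and OsCAO1. OsGUN4, which stimulates magnesium chelatase, was at 100.4 RPM in NT leaves, against 63.4, 60.0 and 45.8 RPM in the lines (-0.84, limma, adjusted p = 0.0799). OsCAO1, chlorophyllide a oxygenase, which makes chlorophyll b and so works against the step of OsNYC1, was at 80.8 RPM in NT leaves, against 47.5, 57.5 and 40.3 RPM in the lines (-0.74, adjusted p = 0.106). In both genes the 3 lines lay below NT without overlap. OsRCA, the Rubisco activase gene among the 9 leaf markers, was the one of them that passed in leaves, at 2198 RPM in NT, against 1434, 1382 and 1153 RPM in the lines (-0.74, adjusted p = 0.0341). It was listed at 0 in all root libraries, and the spread in this test was pooled over both tissues. It lost the call without line 13 (adjusted p = 0.0605), line 15 (0.124) or line 19 (0.0866) and in 5 other alternatives. The other 8 leaf markers did not pass there. Of the 9, 8 had a negative log2 fold change in leaves, with a median of -0.20, and 5 lay below NT in all 3 lines, where 20.6% of all genes did. Their sum was 89608 RPM in NT leaves and 86070, 85384 and 72392 RPM in lines 13, 15 and 19, and its part in the values of the synthesis genes was not tested. In roots 1 of the 9 leaf markers passed, OsCAB1R (limma, adjusted p = 0.00944), with NT above all lines. Of the 10 root markers 0 passed in either tissue, where 3.79% of all genes did in leaves and 1.16% in roots.

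Other regulators of senescence gave 0 calls among 17 genes tested in leaves and 0 in roots, where 3.79% and 1.16% of all genes were called. At an unadjusted p under 0.05, 2 of the 17 passed in each tissue, beside 21% of all genes in leaves and 13.5% in roots. Their median log2 fold change was 0.21 in leaves and 0.20 in roots, beside 0.09 and 0.00 over all genes. The list mixes regulators of both kinds, with OsDOS described as a negative and ONAC011 as a positive regulator of senescence. Its median therefore gives no direction for senescence. OsNAC6 was at 426.1 RPM in NT leaves, against 527.6, 539.1 and 458.9 RPM in the lines, and at 220.0 RPM in NT roots, against 272.6, 292.0 and 332.8 RPM in the lines, above NT in every line of both tissues (0.25 and 0.44, limma, adjusted p = 0.408 and 0.271). OsNAC5, a NAC factor of senescence and stress, lay below NT in leaves (55.8 RPM against 27.5, 44.9 and 42.8) and above NT in roots (69.5 RPM against 90.9, 94.4 and 107.4). The difference of its effect between the tissues was -1.04 (adjusted p = 0.249). OsMYC2, the jasmonate response factor, was at 37.3 RPM in NT leaves, against 46.0 ± 4.27 RPM in the lines (0.29, adjusted p = 0.346).

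The closest name to OsORE1 in the table, OsORE1.2, belongs to OsNAC2 (Os04g0460600), which the naming rule did not match. It was at 18.4 RPM in NT leaves, against 28.05, 22.4 and 25.1 RPM in the lines (0.43, limma, unadjusted p = 0.0189, adjusted p = 0.146), and at 19.2 RPM in NT roots against 21.7, 23.1 and 23.7 RPM.

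Genes used as markers of a senescing rice leaf did not rise past the test. Of 6 tested 0 rose and 1 fell in leaves, where 2.66% and 1.13% of all genes did. In roots 0 did either, beside 1.16% of all genes. The median of the 6 was 0.23 in leaves (0.11 after TMM and 0.10 after quantile normalization) and -0.21 in roots. The one that fell was Osl43, a salt-inducible lectin gene also known as SalT, at 50.4 RPM in NT leaves, against 19.6, 22.1 and 24.6 RPM in the lines (-1.16, SE 0.18, limma, adjusted p = 0.0189), and it lost the call without line 13 (adjusted p = 0.0532), line 15 (0.0544) or line 19 (0.0925) and in 2 other alternatives. Osl57 was at 138.9 RPM in NT leaves, against 187.5 ± 28.2 RPM in the lines (0.42, adjusted p = 0.221), and Osl2 at 33.4 RPM and 41.6 ± 3.89 RPM (0.30, adjusted p = 0.265). Osl85, isocitrate lyase, was too low to be tested, at 0.118 RPM in NT leaves, against 0.383, 2.28 and 0.473 RPM in the lines, with line 15 the highest. OsSAG12-1, a cysteine protease gene of the senescence marker list, was listed at 0 in all leaf libraries.

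Genes of nitrogen and carbon remobilization, 13 of 16 tested, gave 1 rise and 0 falls in leaves, beside 2.66% and 1.13% of all genes. In roots they gave 0 of either, beside 1.16% of all genes. The median of the 13 was 0.06 in leaves and 0.09 in roots. The leaf median was 0.32 with a pseudocount of 0.1 RPM and 0.13 without line 19, and the root median -0.017 with a filter at 5 RPM. The rise was in OsMS, malate synthase of the glyoxylate cycle, a gene with a low level in leaves and a higher one in roots. It was at 0.332 RPM in NT leaves, against 1.95, 2.94 and 1.78 RPM in the lines (1.26, SE 0.21, limma, adjusted p = 0.0228). In roots it was at 43.2 RPM in NT and 55.5 to 64.8 RPM in the lines. The sum of the root markers too was lowest in NT leaves, at 11.9 RPM, of which OsAKT1 gave 6.98 RPM and OsSCR1 2.73 RPM. OsRCc3, OsLSI2 and OsNRT2.1 were listed at 0 in all leaf libraries. OsLSI1 was at 4.33 and 3.66 RPM in leaves of lines 13 and 15 and at 0 in those of NT and line 19. The part of this sum in the OsMS value was not tested. The call was lost without line 13 (adjusted p = 0.0567), line 15 (0.0679) or line 19 (0.102), and in 2 other alternatives, and with a pseudocount of 5 RPM the change was 0.43 (adjusted p = 0.122). OsATG8A, an autophagy gene, was at 175.0 RPM in NT leaves, against 173.2 ± 7.77 RPM in the lines. OsGS1;1, cytosolic glutamine synthetase, was at 171.5 RPM and 160.5 ± 15.4 RPM.

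Genes with the most similar profile over the 8 libraries were found for each gene by the root mean square difference of log2(RPM + 1), each profile centred on its own mean. OsPAO had the closest partners, Os06g0326000 with a DUF296 domain (0.0711) and Os07g0290800, a Tic22-like family protein (0.0955), beside a median of 1.39 over all genes. Os07g0290800 was at 28.7 RPM in NT leaves, against 35.4, 35.1 and 40.0 RPM in the lines. OsNOL was nearest to Os02g0599400 (0.0800), Os02g0608900 (0.0989) and the methionine sulphoxide reductase B gene Os05g0404200 (0.0991), with a median of 1.78 over all genes. OsNYC1 lay nearest to the ABC transporter gene Os04g0528300 (0.124), with a median of 2.52. That gene was at 0.0764 RPM in NT roots and listed at 0 in roots of the lines. Os02g0599400, nearest to OsNOL, was at 0 to 0.238 RPM in roots. At such low values the likeness depends on the 1 RPM added before the log, so it does not show an equal fold between tissues. OsSGR and OsNAP had no partner as close. The nearest to OsSGR were Os09g0425500 (0.282), Os04g0138432 (0.320) and Os04g0613900, described as similar to potassium transporter 18 (0.343, median 0.820). The third of these was at 4.77 RPM in NT leaves against 8.26, 10.2 and 10.9 RPM in the lines, and at 11.01 RPM in NT roots against 8.13, 7.45 and 7.28 RPM. The nearest to OsNAP were Os04g0458600 (0.235), Os01g0690600 (0.242) and Os03g0411800, described as similar to a metal transport protein (0.249, median 0.747). The third of these was at 15.5 RPM in leaves of line 15 and at 4.93 to 7.07 RPM in the other leaves. The first was low in leaves, at 0.026 to 1.28 RPM, so its likeness too depends on the 1 RPM added. The partners of each gene were picked for this likeness, which is therefore a description over 8 libraries.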

How the data were processed

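The deposited table holds RPM values for all 8 libraries, treated as a normalized signal, since per the series design text expression was given as reads per 1000000 and in the deposited table the 46120 genes, the 10 rRNAs and the 92 ERCC spike-ins each sum to 1000000 in a library. The submitters' processing notes name the build IRGSP-1.0 with RSEM 1.2.21, Bowtie 1.2.3 and Trimmomatic 0.39, with settings not given in the sources used here. Places are given by locus identifier only, and sequences were not used here.

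The most frequent value above 0 was taken as 1 read. Between 45.5% and 61.2% of values below 20 reads were then whole within 0.1, so no count test was run. Values looked as if 0.134% to 0.146% of the total of a gene over the 8 libraries had been deducted, which no source used here describes. Adding it back was an alternative, and an exact 0 is given as listed at 0. The 5 genes described first rest on about 50 to 15420 reads in a library. Some other named genes rest on fewer, such as OsMS at 0.332 RPM in NT leaves, where 1 read was 0.0442 RPM. The depth limits low values by counting error, and library spread adds to it.

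Genes averaging 1 RPM or more over all libraries, 21991 in number, were tested on log2(RPM + 1) with limma 3.58.1 in R 4.3.3 (lmFit, eBayes with a trend), as 4 group means with 4 residual degrees of freedom, two-sided, with Benjamini-Hochberg adjustment over all genes and a threshold of 0.05. The spread of the lines, pooled over both tissues, stood in for that of the single NT libraries, so root values also bear on the leaf tests and leaf values on the root tests. Fold changes on this scale understate changes of low genes. P-values measure the spread between these libraries. Roots against leaves were fitted as 4 against 4 libraries. Python 3.11.15 with scipy 1.17.1 gave the exact tests. Methods were tested on simulated data.

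The genes and the 7 lists (84 of 101 names matched, 3 of them by hand) were chosen with earlier results of these data known. Named genes are the 5 found, those past the threshold in a list, at most 6, filled to 3 with its highest in leaves, and the 3 nearest profiles. OsEIL1 and OsSAG12-1 each share all their values with another locus and are uncertain. OsSAG12-1 was above 0 only in roots of line 19, at 0.0412 RPM.

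The labels pair a root and a leaf library through their line, but do not say whether they share plants. Over 11324 genes, root and leaf deviations from the group mean correlated at 0.268, -0.0100 and 0.149 for lines 13, 15 and 19. Between different lines the correlation ran from -0.286 to 0.141. Roots of line 15 were nearer to leaves of line 19 (0.0901) than to their own, and roots of line 19 stood at 0.141 with leaves of line 15.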

Additional observations from a re-analysis of the deposited data

Results flagged for a closer look

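In 63 sets of 4 libraries of 1 gene in 1 tissue, 6 had a library whose gap to the nearest other, divided by the whole range, was above Dixon's critical value. Chance gives about 1 in 20. OsNAP was at 10.9 RPM in leaves of line 15, with the next leaf library at 3.95 RPM (gap over range 0.882). OsNAC103 was at 19.1 RPM in the same library, with the next at 4.71 RPM (0.834). OsNYC4 was at 488.0 RPM in NT leaves, with the next at 418.7 RPM (0.856), and Osl43 at 50.4 RPM in NT leaves, with the next at 24.6 RPM (0.839). In roots, OsCAB1R was at 190.2 RPM in NT, with the next at 3.95 RPM (0.979), and Os04g0692600 (OsSGRL) at 7.02 RPM in line 13, with the next at 4.15 RPM (0.903).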

How the results depend on the processing

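In leaves 834 genes passed. Fitted on leaves alone 16 did, and 90 to 809 did with 1 line left out (215 without line 15, 90 without line 19). Of the 5 genes 0 passed, and 0 to 1 with a line left out. Higher and lower calls in leaves numbered 585 and 249, but 463 and 360 after TMM, 377 and 293 after quantile normalization and 336 and 356 with no filter. In roots 256 passed, against 410 with a pseudocount of 5 RPM, 684 with no filter, 121 with a filter at 5 RPM, 57 on roots alone and 65 to 258 with a line left out. Higher and lower calls in roots numbered 144 and 112, but 154 and 256 with a pseudocount of 5 RPM and 179 and 505 with no filter. For the difference between tissues 84 passed, against 161 (pseudocount of 5 RPM), 245 (no filter), 31 (filter at 5 RPM), 54 (quantile normalization) and 0 to 25 with a line left out. Its higher and lower calls numbered 57 and 27, against 32 and 25 after TMM and 31 and 23 after quantile normalization, and turned to 9 and 16 without line 13. With the line as a replicate block 26 passed, 11 higher and 15 lower, and the block changed no call of the 5 genes.

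Of 558 values of single genes under alternatives 509 kept their direction and side of the threshold, 35 lost the call, 5 gained it and 9 changed sign. The changes of sign were, for the difference of the OsNAP effect, -0.026 (pseudocount of 5 RPM), -0.038 (TMM), -0.12 (quantile normalization) and -0.42 to 0.51 with a line left out (-0.42 without line 15), beside 0.06; for OsSGR in leaves against roots 0.45 (TMM), 0.41 (quantile normalization) and -0.45 to 0.46 with a line or NT left out (0.46 without NT); and, with a line left out, -0.079 to 0.14 for OsNOL in roots and -0.041 to 0.021 for OsATG8A in leaves, both changing sign without line 19. The cause of these changes was not tested. Settings with fewer libraries or on 1 tissue also leave fewer degrees of freedom, which bears on the calls and not on the signs. Of 168 medians of lists under alternatives 17 moved by more than the spread between lines, among them the leaf medians of the synthesis genes (-0.24 after TMM, -0.19 after quantile normalization and without line 15). NT has 1 library per tissue, and this limits every comparison with it.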

Other observations

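Os03g0805600, described as similar to pheophorbide a oxygenase and found outside the naming rule, was chosen after its values were seen. It was at 137.4 RPM in NT leaves, against 125.2, 125.3 and 105.0 RPM in leaves of lines 13, 15 and 19, and it was listed at 0 in roots of NT and of lines 13 and 15.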
